A study of Mus musculus with 4 samples.

Results

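Cycling nuclei were taken from single-nucleus RNA sequencing of mouse ventricles as barcodes with at least 300 genes, at most 20% mitochondrial unique molecular identifiers (UMIs, each counting 1 captured RNA molecule) and at least 3 UMIs over 2 or more of 11 genes of mitosis and proliferation: Mki67, Top2a, Cenpf, Kif11, Aspm, Hmmr, Anln, Knl1, Cenpe, Kif15 and Bub1. The rule found 377 of the 19584 barcodes that passed the first 2 conditions, or 1.93%. The members were selected on the UMIs of those 11 genes, so the levels of these genes are given as a description.

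The study crossed voluntary wheel running with myocardial infarction in wild-type C57BL/6J mice of both sexes, aged 8 weeks at the start. The sedentary group neither ran nor had an infarct, and the running group ran for 16 weeks. The sedentary infarct and running infarct groups had the same background and were operated on after that time, with hearts taken 2 weeks later. Hearts were pooled before nuclei were isolated, 2 per group without infarct and 4 per group with infarct, and each group gave 1 library. With 1 library per group no comparison could be tested, and every difference below is between pools. Values for the libraries are given in the order sedentary, running, sedentary infarct and running infarct. Ranges after a value are 95% intervals that cover counting error only.

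A dividing cell passes through S phase, when DNA is copied, and through G2 into mitosis and cytokinesis, when chromosomes and then cytoplasm are parted. E2F factors and their pocket protein partners time the S phase genes, and complexes of the MuvB core with MYBL2 and FOXM1 time the genes of G2 and mitosis. In the adult heart most cardiomyocytes have left the cycle, and after infarction endothelial cells, fibroblasts and leukocytes are the main cells known to divide. Cardiomyocytes can also copy DNA or divide their nuclei without dividing, so the genes of cytokinesis are also given as a list of their own. All of them but Kif20a are in the list of G2 and mitosis outside the rule too, so their UMIs are counted in both lists.

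Promoters of the members' rule genes are shown because such genes are known for a shared element, the cell cycle homology region (CHR, core TTTGAA), through which MuvB complexes silence them in resting cells. RefSeq promoter windows of build GRCm38.p6, matched by gene symbol, reach from 250 bases before to 50 bases after each gene's start. The stretches printed run from 150 bases before to 30 bases after the start, 5′ to 3′ on the gene's strand. Capitals mark the CHR core (TTTGAA or, from the other strand, TTCAAA), the CCAAT box (CCAAT or ATTGG) and an E2F core (TTCCCGC or GCGGGAA). The first 4 are rule genes, each with a CHR core and a CCAAT box. The last 2, Pola1 and Hells, are S phase genes that described the members below and were picked for an E2F core in the stretch. All are examples and do not stand for their lists.
Top2a, chr11:99024160-99024339, minus strand: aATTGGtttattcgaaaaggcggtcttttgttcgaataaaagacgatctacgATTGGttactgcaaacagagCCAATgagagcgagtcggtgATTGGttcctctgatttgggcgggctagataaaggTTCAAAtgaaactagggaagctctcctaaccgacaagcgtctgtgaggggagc
Cenpf, chr1:189688057-189688236, minus strand: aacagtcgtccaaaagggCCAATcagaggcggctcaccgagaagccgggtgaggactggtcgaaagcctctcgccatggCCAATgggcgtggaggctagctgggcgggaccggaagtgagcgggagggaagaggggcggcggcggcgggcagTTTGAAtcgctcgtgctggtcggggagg
Kif11, chr19:37376232-37376411, plus strand: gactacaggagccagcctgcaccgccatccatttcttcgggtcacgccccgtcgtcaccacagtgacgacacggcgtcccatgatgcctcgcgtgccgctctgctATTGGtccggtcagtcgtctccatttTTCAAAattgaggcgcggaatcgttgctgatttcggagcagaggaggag
Hmmr, chr11:40733408-40733587, minus strand: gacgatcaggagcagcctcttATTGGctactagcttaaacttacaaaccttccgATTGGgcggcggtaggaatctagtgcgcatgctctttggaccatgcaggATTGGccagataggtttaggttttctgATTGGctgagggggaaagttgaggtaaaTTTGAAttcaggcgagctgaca
Pola1, chrX:93632126-93632305, minus strand: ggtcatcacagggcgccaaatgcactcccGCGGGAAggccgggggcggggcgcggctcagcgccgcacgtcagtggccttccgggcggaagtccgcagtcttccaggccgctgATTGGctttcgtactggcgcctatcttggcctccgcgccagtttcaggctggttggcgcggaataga
Hells, chr19:38930840-38931019, plus strand: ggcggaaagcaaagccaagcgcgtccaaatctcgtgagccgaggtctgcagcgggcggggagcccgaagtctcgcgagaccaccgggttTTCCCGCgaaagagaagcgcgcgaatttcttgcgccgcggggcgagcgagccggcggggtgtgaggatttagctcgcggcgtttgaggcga

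The CHR core lay in the windows of 9 of the 11 rule genes, or 81.8%, which were Anln, Aspm, Cenpf, Hmmr, Kif11, Kif15, Knl1, Mki67 and Top2a. It lay in 32 of 49 windows of other genes of G2 and mitosis (65.3%), 6 of 37 of S phase genes (16.2%) and 18.1% of all 27025 windows. The E2F core was found in 0 of the 11 rule genes, in 16 of the 37 S phase windows (43.2%) and in 4.66% of all windows. The CCAAT box was in 8 of the 11 rule genes (72.7%), 67.6% of S phase windows and 37.9% of all. These are matches of letters and show no binding.

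A fixed minimum of 3 UMIs is met more easily by a deep barcode, and many members were deep. Median depth of members was 14746, 19380, 43480.5 and 16618.5 UMIs, against 3548, 3789, 4147.5 and 2810 in the other nuclei of the same libraries. Members over 20000 UMIs made up 48.2, 48.3, 67.1 and 46.3% of all members, and the deepest held 732016. Of the barcodes over 40000 UMIs, 22.5, 37.9, 48.1 and 58.4% met the rule.

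The members were therefore also divided by density, a step added after the data were seen. Dense nuclei had at least 5 rule UMIs per 10000 UMIs, and 165 of the 377 members, or 43.8%, reached it. The 212 others, called sparse, had a median of 51650 UMIs against 6676 in dense nuclei. This gap is set in part by the 2 limits: with at least 3 rule UMIs, a shallow member is always dense. No sparse member had fewer than 6401 UMIs. Summed over nuclei, rule genes took 16.7 UMIs per 10000 in dense, 0.967 in sparse and 0.298 in other nuclei. Just inside the rule were 95 members with exactly 3 rule UMIs, and just outside were 187 barcodes with 2 UMIs of 2 rule genes and 88 with 3 or more UMIs of a single one. Around the density limit, 13 members had 4 to 5 and 15 had 5 to 6 rule UMIs per 10000.

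**Figure D1:**
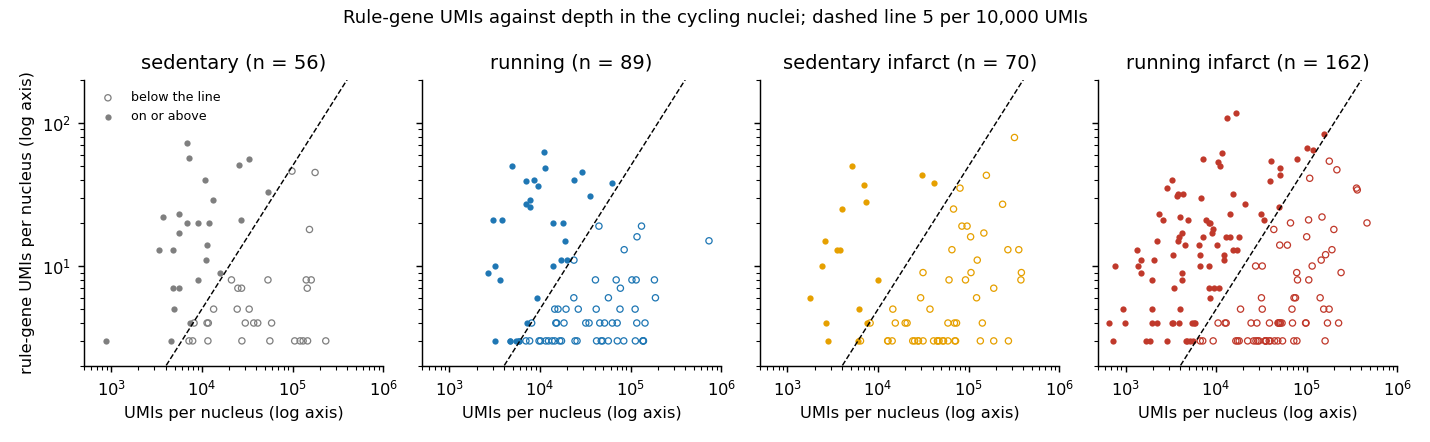
UMIs of the 11 rule genes against all UMIs in each of the 377 members, 1 panel per library, both axes logarithmic; filled points are dense nuclei, on or above the dashed line of 5 rule UMIs per 10000. The deepest nuclei lie mostly below the line, and 165 members lie on or above it. The minimum of 3 rule UMIs places every shallow member above the line.

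The rule genes encode parts of the mitotic machinery. In dense nuclei Top2a, whose topoisomerase untangles sister DNA, stood at 460, 428, 518 and 394 CPM, meaning UMIs per 1000000 of all UMIs. Over all other nuclei it stood at 2.58 CPM (2.28 to 2.90), and 1.21% of them had a UMI against 77.6% of dense nuclei. Mki67, which coats mitotic chromosomes, was at 331, 282, 304 and 163 CPM, lowest in the running infarct library. Its level over the other nuclei was 2.62 CPM, with a UMI in 1.29% of them.

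The remaining rule genes lay in the same order between dense and other nuclei. Among kinetochore genes, which tie chromosomes to the spindle, the scaffold gene Knl1 stood at 236, 194, 221 and 175 CPM in dense nuclei, the motor gene Cenpe at 72.2, 103, 117 and 93.3, and the checkpoint kinase gene Bub1 at 36.1, 37.7, 41.4 and 35.4. Each was at most 2.58 CPM over the other nuclei. The spindle motor genes Kif11 (181, 231, 117 and 145) and Kif15 (125, 153, 173 and 170) and the spindle pole gene Aspm (91.9, 50.3, 117 and 64.4) were seen in dense nuclei of every library. So were Hmmr, for a microtubule-binding protein, at 55.8, 93.1, 55.2 and 49.1 CPM, and Anln, for a scaffold of the contractile ring, at 148, 98.1, 262 and 132. Cenpf, a centromere gene, set itself apart by its level outside the members: 9.66 CPM (9.08 to 10.3), with a UMI in 3.83% of other nuclei. It was also the rule gene found in most of the members that were not dense, 65.1% of them against 47.9% of dense nuclei.

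Markers of a second cell lineage went with depth. A second lineage scored above 50% of the first in 33.5% of sparse, 18.8% of dense and 6.78% of other nuclei, a mark that leaves many mixtures unseen. Scrublet's automatic threshold called 0 doublets, so it did not work here, and the 803 barcodes with the highest scores held 17 sparse and 5 dense nuclei. The part of mixed barcodes in the results was not tested. Among the libraries, 46 barcode sequences occurred more than once, 2 of them in members.

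Genes of the cycle that the rule did not use were set beside the label. Genes of G2 and mitosis outside the rule had a median of 43.1 UMIs per 10000 in dense, 5.42 in sparse and 3.64 in other nuclei. For S phase and replication genes the medians were 23.9, 7.38 and 5.62, and for the 12 genes of cytokinesis 7.74, 0.685 and 0. Cycle genes outside the rule were thus high where rule genes were dense, while sparse members lay close to the other nuclei per UMI. These values come from nuclei picked on the rule genes, so they describe the members and do not test the label.

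By library, the dense nuclei had G2 and mitosis medians of 46.1, 38.6, 70.5 and 42.2 per 10000, and S phase medians of 49.7, 34.2, 16.6 and 20.9. The S phase values were lower in the 2 infarct libraries, where the dense nuclei of the sedentary infarct library numbered 17. Against limits at the 95th percentile of other nuclei, 18.6 per 10000 for S phase and 15.5 for G2 and mitosis, 91 of the 165 dense nuclei (55.2%) were above both. Above the G2 and mitosis limit alone were 47 (28.5%), above the S phase limit alone 3, and below both 24 (14.5%). Nuclei below both numbered 3 of 26, 4 of 33, 5 of 17 and 12 of 89 in the libraries. A rule made of mitotic genes passes over nuclei early in S phase, so these counts do not give the share of any phase in the tissue.

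**Figure D2:**
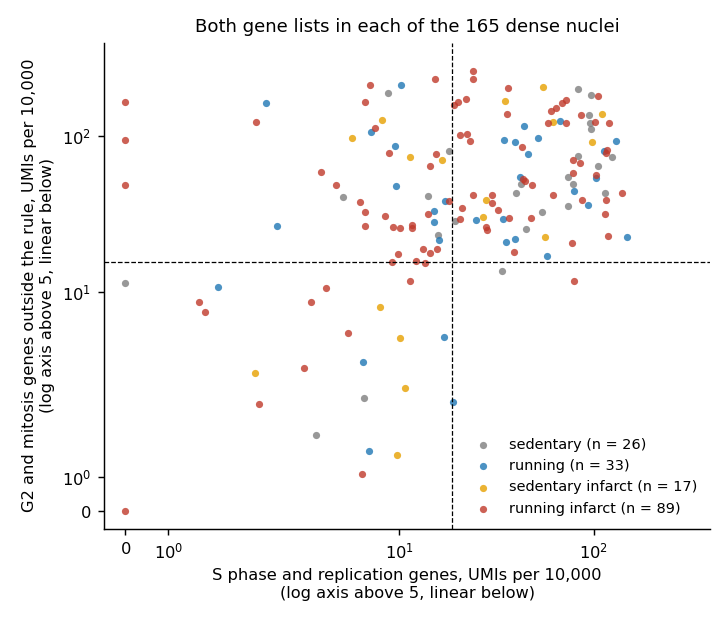
S phase gene UMIs (horizontal) and UMIs of G2 and mitosis genes outside the rule (vertical), per 10000, in the 165 dense nuclei, coloured by library; axes are linear up to 5 and logarithmic above. Dashed lines are the 95th percentiles of other nuclei, 18.6 and 15.5, and 91 nuclei lie above both.

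Genes were then compared between dense nuclei and the other nuclei of the same library and lineage, weighted to the dense nuclei's depth, which gives an expected UMI count. A gene counted as higher or lower at 1.5-fold or more. Of the 15057 genes measured, 7.86% were higher and 11.4% lower, with a median log2 ratio of -0.02 over all of them. In this contrast 41 of 45 measured S phase genes were higher and 0 lower, with a median log2 ratio of 1.88. All 34 measured genes of G2 and mitosis outside the rule were higher (median 3.32). The rule chose nuclei on this contrast, so no support is drawn from it.

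Among replication genes, Pola1, the catalytic subunit of the polymerase that primes new strands, had 748 UMIs in dense nuclei where 200 were expected, a ratio of 3.74 (3.47 to 4.01). Its level in dense nuclei was 594, 486, 297 and 266 CPM, lower in both infarct libraries than in either library without infarct. Atad2, a chromatin ATPase gene, was at 440, 262, 276 and 249 CPM, and 5.05-fold above expectation (4.65 to 5.47). The chromatin remodeller gene Hells was 9.04-fold higher (7.88 to 10.3), with 151, 141, 117 and 78.8 CPM. Mcm6, of the replicative helicase, was 2.72-fold higher (2.22 to 3.29).

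Genes of mitosis gave larger ratios. Diaph3, a formin that nucleates actin, stood at 581, 370, 483 and 365 CPM in dense nuclei, 26.8-fold above expectation (25.1 to 28.7). Neil3, a DNA glycosylase gene, had 323 UMIs where 3.11 were expected, and was at 151, 151, 207 and 150 CPM, a narrow range between libraries. The condensin gene Smc4 was 2.33-fold higher (2.12 to 2.54) and Lmnb1, for lamin B1, 8.32-fold (7.38 to 9.34). The mitotic kinase gene Cdk1 was seen in 26.7% of dense and 0.338% of other nuclei, and its partner Ccnb1 in 14.5 and 0.198%.

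All 8 measured genes of cytokinesis were higher (median 3.94), and all but Kif20a are also among the G2 and mitosis genes above. Kif23, a motor of the central spindle, was at 197, 214, 193 and 130 CPM, 18.6-fold above expectation (16.6 to 20.7). Ect2, the exchange factor that starts the contractile ring, was at 105, 136, 117 and 89.3 CPM and 30.3-fold higher (26.4 to 34.7), and its partner Racgap1 14.5-fold (12.5 to 16.8). The bundling gene Prc1 was 16.3-fold higher (14.4 to 18.4). Cit, for the kinase that holds the midbody, was at 158, 184, 166 and 142 CPM, 6.19-fold higher (5.53 to 6.91). Kif23, Ect2 and Cit were lowest in the running infarct library.

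Regulators moved unevenly. In the list of cyclin D, CDK4/6 and G1 entry, 6 of 12 measured genes were higher and 1 lower (median 0.50). The D-type cyclin genes, which link growth signals to the cycle, were not among the higher ones: Ccnd3 had a ratio of 0.720 (0.659 to 0.786), Ccnd2 0.759 (0.646 to 0.885) and Ccnd1 0.841 (0.628 to 1.10). The activator genes E2f1 and E2f2 were 4.64-fold (3.41 to 6.17) and 10.4-fold higher (8.21 to 13), and Ccne2, a cyclin of S phase entry, 3.19-fold (2.70 to 3.73). Cdk6 was near even at 1.12 (1.01 to 1.23). The 1 lower gene was Myc, with 3 UMIs where 7.04 were expected.

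Among CDK inhibitors and pocket proteins, 6 of 12 were higher and 0 lower (median 0.52). The INK4 inhibitor gene Cdkn2c was 5.37-fold higher (4.20 to 6.76), with 49.2, 35.2, 27.6 and 31.4 CPM in dense nuclei, and Rbl1, a pocket protein gene, 2.83-fold (2.37 to 3.35). Cdkn1b, for p27, was near even at 0.909 (0.733 to 1.11), as was Rb1 at 1.26 (1.17 to 1.35). Of the E2F7/8, FOXM1 and MYBL2 group, 5 of 8 measured genes were higher and 0 lower (median 1.20). The repressor gene E2f7 was 10.1-fold higher (8.76 to 11.7), at 112, 90.6, 110 and 86.9 CPM, and Mybl2 12.5-fold (9.33 to 16.5). Foxm1 was too rare in other nuclei for that contrast: it stood at 29.7 CPM in dense and 0.794 in other nuclei.

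The number of members differed between libraries. The rule took 56 of 5342, 89 of 6133, 70 of 3206 and 162 of 4903 nuclei, or 1.05% (0.793 to 1.36), 1.45% (1.17 to 1.78), 2.18% (1.71 to 2.75) and 3.30% (2.82 to 3.84). The share was 2.08 times as large in the sedentary infarct as in the sedentary library (1.47 to 2.95), and 2.28 times as large in the running infarct as in the running library (1.76 to 2.94). Running against sedentary libraries gave a ratio of 1.38 (0.993 to 1.93) without infarct and 1.51 (1.15 to 2.00) with it. On this count both infarct libraries were above both others.

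Among dense nuclei only the running infarct library stood apart of the 4. They numbered 26, 33, 17 and 89, or 0.487% (0.318 to 0.712), 0.538% (0.371 to 0.755), 0.530% (0.309 to 0.848) and 1.82% (1.46 to 2.23). The running infarct share was 3.37 times the running one (2.27 to 5.02) and 3.42 times the sedentary infarct one (2.04 to 5.74). The sedentary infarct share was 1.09 times the sedentary one (0.592 to 2.00), in place of 2.08 over all members. Median depth of the dense nuclei was 7230, 7768, 5100 and 5658 UMIs and their median mitochondrial share 5.36, 8.54, 2.96 and 3.66%.

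Thinning removed depth in another way. With every nucleus drawn down to 2000 UMIs and shallower ones left out (1125, 1420, 592 and 1789), the rule took 14 of 4217, 17 of 4713, 11 of 2614 and 43 of 3114 nuclei. The shares were 0.332, 0.361, 0.421 and 1.38%, against 1.30, 1.89, 2.64 and 4.75% of the same nuclei at full depth. The ratio of the running infarct to the running share was 3.83 (2.19 to 6.70), and of the sedentary infarct to the sedentary share 1.27 (0.576 to 2.79). Over all nuclei of a library, members or not, rule genes took 50.9, 51.9, 53.0 and 113 CPM.

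**Figure D3:**
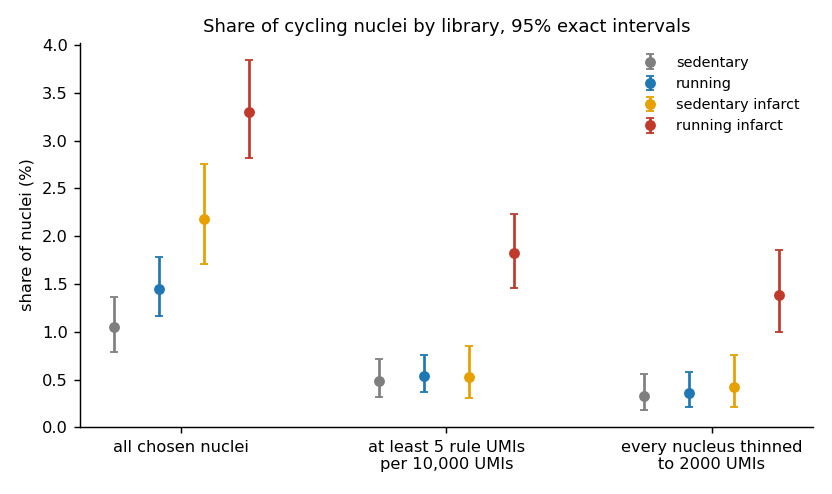
Share of nuclei (%) that met the rule, by library, for all 377 members, for the 165 dense nuclei and with every nucleus thinned to 2000 UMIs; points are single libraries, bars 95% exact intervals. The running infarct library is highest in all 3 sets, and the bar of the sedentary infarct library clears the points of both libraries without infarct in the first set only.

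Within each range of depth, the dense share was also highest in the running infarct library. Between 2000 and 5000 UMIs it was 0.243, 0.342, 0.536 and 1.56%. Between 5000 and 10000 UMIs it was 0.862, 0.901, 0.921 and 2.33%, and between 10000 and 20000 UMIs 1.22, 1.5, 0 and 4.95%. The intervals of the 2 libraries without infarct overlapped in every range. Up to 5000 UMIs the minimum of 3 rule UMIs makes every member dense, so the dense share there is the share of members.

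**Figure D4:**
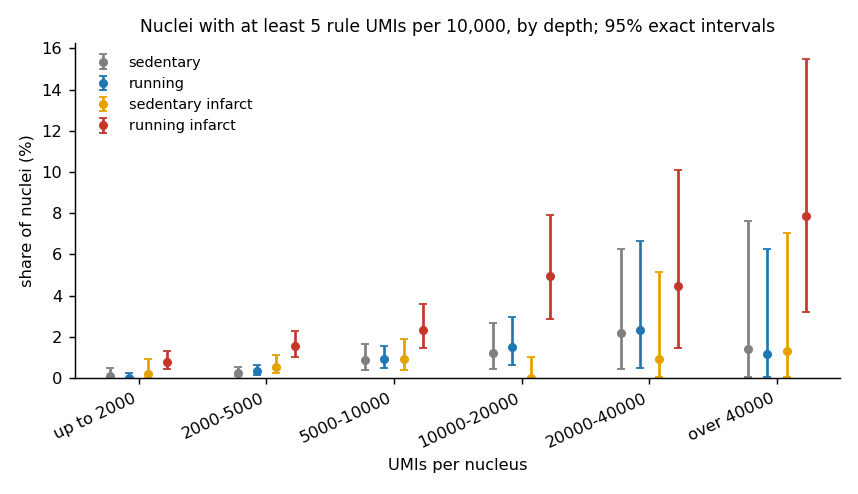
Share of nuclei (%) that were dense within 6 ranges of UMIs per nucleus, by library; bars are 95% exact intervals. The running infarct library gives the highest point in each range, with 0.783% up to 2000 and 7.87% over 40000 UMIs.

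Other features of the libraries moved with these shares. The nuclei came from a sort for Hoechst, which stains DNA, and how its gate treated nuclei with copied DNA is not given in the sources used here. UMIs of 4 Y-linked genes stood at 322, 367, 154 and 221 CPM in other nuclei and at 341, 269, 110 and 198 in dense nuclei, so the pools differed in Y-linked RNA. With at most 5% mitochondrial UMIs the ratio of running to sedentary shares turned from 1.38 to 0.849, and that of running infarct to running went from 2.28 to 6.55. Median mitochondrial share of other nuclei was 6.23, 10.1, 4.66 and 4.74%, so that limit left out unlike parts of the libraries. The part of these features in the shares was not tested.

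Each nucleus took the lineage whose markers, out of 127 for 18 lineages, stood farthest above the level set by its depth and library. A lineage name below means that a nucleus was like that cell type by these markers. Over all members, 70 were vascular endothelial, 69 macrophage, 59 cardiomyocyte, 34 fibroblast, 28 lymphatic endothelial, 26 pericyte, 23 endocardial, 16 B cell, 16 mesothelial, 9 T cell, 8 dendritic, 5 smooth muscle, 2 NK cell, 2 adipocyte and 1 Schwann, and 9 had too few marker UMIs. Dense nuclei were spread otherwise: 46 vascular endothelial (27.9%), 33 macrophage (20.0%), 17 lymphatic endothelial (10.3%), 13 fibroblast, 11 pericyte, 9 cardiomyocyte, 9 unassigned, 7 mesothelial, 6 B cell, 6 dendritic, 3 endocardial, 2 T cell, 2 smooth muscle and 1 NK cell. Cardiomyocyte nuclei made up 15.6% of members and 5.45% of dense nuclei.

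The dense nuclei carried their lineages' markers at somewhat lower levels than other nuclei. Summed own markers had medians of 66.1 UMIs per 10000 in dense against 93.1 in other vascular endothelial nuclei, 44.1 against 62.3 in macrophage, 45.7 against 69.3 in fibroblast and 38.4 against 51.6 in lymphatic endothelial nuclei. Egfl7, a vessel gene, had a UMI in 45 of 46 dense vascular endothelial nuclei and Flt1, for a VEGF receptor, in 43. Csf1r, for the macrophage growth factor receptor, had one in 25 of 33 dense macrophage nuclei, and the lymphatic receptor gene Flt4 in 17 of 17. The fibroblast factor gene Tcf21 was at 0 in the 13 dense fibroblast nuclei, and the pericyte gene Vtn at 0 in the 11 dense pericyte nuclei. Clusters made without the cycle genes, but named by the same markers, gave 108 dense nuclei a name, the same lineage in 91. Of all nuclei in named clusters, 87.2% had the same lineage by both. The other 57 dense nuclei, and 242 of all members, fell in clusters with no name. Over all members, pericyte nuclei had medians of 16.7 pericyte and 33.8 cardiomyocyte marker UMIs per 10000. Endocardial members had 23.1 own and 86.5 cardiomyocyte UMIs, macrophage members 28.1 and 27.0, and lymphatic members 26.5 own and 29.6 vascular endothelial. Own markers had the highest median in cardiomyocyte, fibroblast, vascular endothelial and macrophage members, and in dense nuclei of all these lineages. Lineages of all members are thus less sure.

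Vascular endothelial nuclei were 27 of the 89 dense nuclei of the running infarct library. Dense nuclei numbered 10 of 1309, 6 of 1542, 3 of 627 and 27 of 1122, or 0.764% (0.367 to 1.40), 0.389% (0.143 to 0.845), 0.478% (0.0988 to 1.39) and 2.41% (1.59 to 3.48) of the lineage. The running infarct share was 6.18 times the running one (2.56 to 14.9) and 5.03 times the sedentary infarct one (1.53 to 16.5). Marked for a second lineage were 0, 1, 0 and 6 of these dense nuclei, and their part in the ratios was not tested. Between the libraries without infarct, running over sedentary was 0.509 (0.186 to 1.40), within counting error. Over all members the 4 shares were 0.993, 0.778, 1.12 and 3.39%, in the same order at the top. After thinning to 2000 UMIs the counts were 5 of 911, 4 of 1064, 3 of 461 and 13 of 634.

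Dense nuclei of pericytes and mesothelial cells, which wrap capillaries and cover the heart, were few and most were from the running infarct library. Dense pericyte nuclei numbered 1 of 178, 1 of 196, 1 of 167 and 8 of 186, with 4.30% (1.87 to 8.30) in the running infarct library. The ratio to the running library was 8.43 (1.06 to 66.8) and to the sedentary infarct library 7.18 (0.908 to 56.8). Marked for a second lineage were 0, 0, 1 and 3 of the dense pericyte nuclei. Over all members the pericyte shares were 1.12, 3.06, 1.80 and 8.06%, with 8 of the 15 running infarct members marked for a second lineage. Dense mesothelial nuclei numbered 0 of 127, 0 of 141, 1 of 156 and 6 of 236, with 2.54% (0.939 to 5.45) in the running infarct library. A count of 0, taken as fewer than 3 counts, allows shares of up to 2.36 and 2.13% in the libraries without infarct, within that interval. The mesothelial shares over all members were 0.787, 3.55, 1.92 and 2.97%, highest in the running library, and running infarct over running was 0.836 (0.271 to 2.59).

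Macrophages did not have their highest share in the running infarct library. Dense nuclei numbered 4 of 278, 10 of 341, 6 of 291 and 13 of 624, or 1.44, 2.93, 2.06 and 2.08% of the lineage, with no ratio between libraries outside counting error. Running infarct over running was 0.710 (0.315 to 1.60) and running infarct over sedentary infarct 1.01 (0.388 to 2.63). Over all members the macrophage shares were 4.32, 5.87, 5.84 and 3.21%, lowest in the running infarct library, with a ratio to the running library of 0.546 (0.298 to 1.00). In lymphatic endothelial nuclei the order turned with the set of nuclei. Dense ones numbered 6 of 214, 7 of 317, 1 of 93 and 3 of 154, or 2.80, 2.21, 1.08 and 1.95%. The lymphatic shares over all members were 3.27, 2.52, 3.23 and 6.49%, highest in the running infarct library, at 2.57 times the running one (1.04 to 6.39). Whether the vascular endothelial ratios differ from those of macrophages was not tested.

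Fibroblasts, the largest lineage with 5658 nuclei, held few dense nuclei. They numbered 2 of 1706, 4 of 1869, 3 of 984 and 4 of 1099, or 0.117, 0.214, 0.305 and 0.364%. Over all members the fibroblast share was 0.293, 0.321, 1.02 and 1.18%, a ratio of 3.47 (1.19 to 10.1) between the sedentary libraries and 3.68 (1.40 to 9.67) between the running ones. Of the 34 fibroblast members, 13 were marked for a second lineage, and F13a1, a macrophage marker, was at 323 CPM without mitochondrial genes in them against 42.3 in other fibroblast nuclei. Endocardial members showed a like gap: 10 of 155 nuclei in the sedentary infarct library met the rule (6.45%), and 0 of them were dense.

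**Figure D5:**
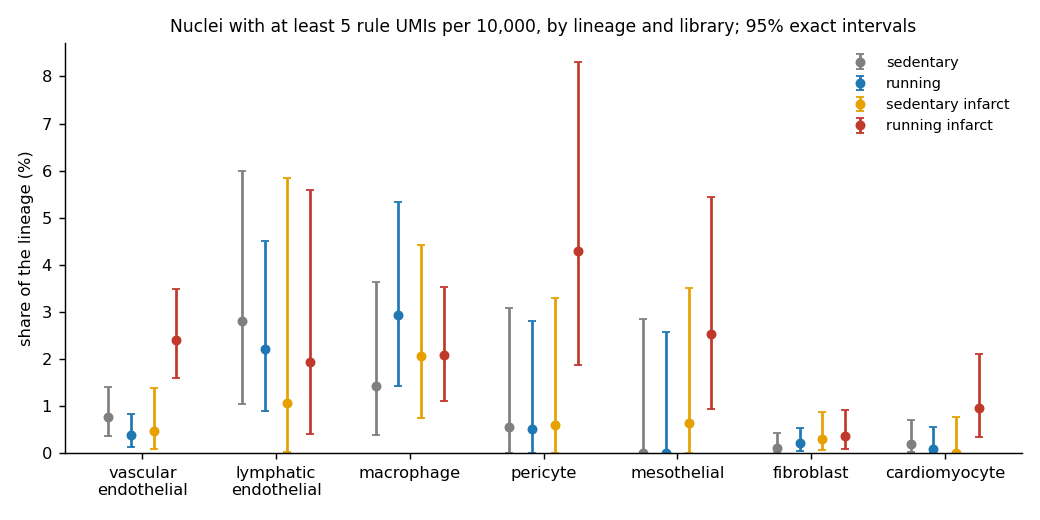
Share of each lineage (%) that was dense, by library, for 7 lineages; bars are 95% exact intervals and a point on the axis is 0 nuclei. In vascular endothelial nuclei the running infarct library, at 2.41%, lies above the bars of the other 3 libraries, while macrophage and lymphatic bars overlap in all 4.

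Cardiomyocyte nuclei were 59 of the members and 9 of the dense nuclei. Dense ones numbered 2 of 1021, 1 of 1008, 0 of 482 and 6 of 616, or 0.196, 0.0992, 0 and 0.974%, where 0, taken as fewer than 3 counts, allows up to 0.622%. Over all members the shares were 0.979, 2.08, 2.07 and 2.92%. Other cardiomyocyte nuclei had median depths of 8533, 8105, 9589 and 2695 UMIs, shallowest in the running infarct library. A shallow member is always dense, so the dense shares of cardiomyocyte nuclei compare libraries of unlike depth. After thinning, 2 of 939, 0 of 838, 1 of 415 and 2 of 359 cardiomyocyte nuclei met the rule. These thinned counts are too small to rank the libraries. The dense nuclei had a median of 263 cardiomyocyte marker UMIs per 10000 against 543 in other cardiomyocyte nuclei.

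A single nucleus of the running library gave the fullest set of cycle genes without a mark for a second lineage: 40 UMIs over 10 rule genes, 115 of G2 and mitosis and 27 of cytokinesis among 23848 UMIs, beside 232 cardiomyocyte marker UMIs per 10000. Of the 6 in the running infarct library, a nucleus of 3309 UMIs held 12 rule UMIs, 41 of G2 and mitosis and 4 of cytokinesis, with 317 marker UMIs per 10000. Another, of 4510 UMIs, held 14, 35 and 12, with 792 marker UMIs per 10000, and was among the top Scrublet scores. The nuclei of 16891 and 116590 UMIs, with 13 and 65 rule UMIs, and the sedentary nucleus of 53828, with 33, were marked for a second lineage. The other running infarct nuclei, of 722 and 1678 UMIs, had 3 rule UMIs each, 0 and 5 of G2 and mitosis, and 0 of cytokinesis. The sedentary nucleus of 9127 UMIs had 8 rule UMIs of 2 genes, 3 of G2 and mitosis and 0 of cytokinesis. Cytokinesis UMIs, apart from those of Kif20a, are also counted among those of G2 and mitosis.

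Lymphoid and dendritic nuclei were few but often members. Of B cell nuclei 16 of 155 met the rule (10.3%, 6.02 to 16.2) and 6 were dense, 4 of these marked for a second lineage. Of dendritic nuclei 6 of 48 were dense (12.5%, 4.73 to 25.2), 5 of them among the 23 of the running infarct library. T cell nuclei gave 9 members of 181 and 2 dense nuclei (1.10%, 0.134 to 3.93). B cell and T cell members had median depths of 30181.5 and 66059 UMIs, against 2513 and 2549.5 in other nuclei of these lineages. Dendritic members stood at 7239 against 4696.5.

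State genes were described in dense vascular endothelial nuclei against other nuclei of the same libraries and lineage, on 12269 genes of which 11.4% were higher and 14.2% lower. Capillary genes were lower in 6 of 8, with a median log2 ratio of -0.80. Cd36, a fatty acid transporter gene, had 231 UMIs where 400 were expected, a ratio of 0.577 (0.505 to 0.657). Meox2, for a factor of fatty acid transport, was at 0.664 (0.591 to 0.743) and Rgcc at 0.508 (0.350 to 0.713). Tcf15, Meox2's partner gene, had 6 UMIs where 21.3 were expected. By library Cd36 stood at 522, 537, 0 and 298 CPM in dense and at 762, 602, 538 and 570 in other nuclei, lower in dense nuclei in every library, with 3 dense nuclei in the sedentary infarct one.

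Arterial genes were lower in 4 of 9 and higher in 0 (median -0.40), among them Bmx, a kinase gene of arterial endothelium, at 0.393 (0.294 to 0.516) and the ligand gene Efnb2 at 0.599 (0.446 to 0.788). Angiogenesis and tip cell genes were higher in 4 of 12 and lower in 1 (median 0.23). Angpt2, which loosens vessels, had 89 UMIs where 34.0 were expected, a ratio of 2.61 (2.10 to 3.22). By library it was at 194, 144, 600 and 112 CPM in dense and 53.8, 48.1, 56.2 and 50.6 in other nuclei, higher in dense nuclei in all 4. The dense values of Angpt2 rest on 16, 11, 7 and 55 UMIs, in 6 of 10, 4 of 6, 2 of 3 and 12 of 27 nuclei. The basement membrane genes Col4a1, at 1.03 (0.932 to 1.14), and Col4a2, at 1.06 (0.943 to 1.19), were near even, and Kdr, a VEGF receptor gene, was at 0.794 (0.656 to 0.953). In the running infarct library alone, with 27 dense nuclei, the capillary median was -0.89 and the angiogenesis median 0.31. Kdr was also among the markers that set the lineage. Marker sums of the whole lineage were lower in dense nuclei too, and their part in these ratios was not tested.

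In dense macrophage nuclei, 11.6% of 10458 genes were higher and 17.1% lower than in other macrophage nuclei of the same libraries. Resident macrophage genes were lower in 3 of 10 and higher in 0 (median -0.46): Timd4, for a phosphatidylserine receptor, had 7 UMIs where 20.5 were expected, and Igf1 and Vsig4 had ratios of 0.520 (0.375 to 0.703) and 0.473 (0.285 to 0.738). Mrc1, a scavenger receptor gene, was nearer even at 0.852 (0.763 to 0.948). Of the monocyte-derived list 1 of 6 was higher and 0 lower (median 0.18), the chemokine receptor gene Ccr2 at 2.06 (1.56 to 2.68). Ccr2 stood at 154, 147, 67.8 and 228 CPM in dense and 10.5, 21.4, 113 and 147 in other macrophage nuclei. It had a UMI in 1 of 4, 5 of 10, 1 of 6 and 7 of 13 dense nuclei, so 1 nucleus gave the sedentary value. Ccr2 and Lyz2 of this list, and Mrc1, Cd163 and F13a1 of the resident list, were also among the markers that set the lineage. Their levels were thus part of how the nuclei were chosen. Lipid-associated genes were lower in 4 of 10 and higher in 0 (median -0.46), with the cholesterol exporter gene Abca1 at 0.433 (0.337 to 0.548). Summed macrophage markers were lower in dense nuclei too, at a median of 44.1 against 62.3 UMIs per 10000. Their part in these ratios was not tested.

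The contrast of all members with other nuclei of a lineage, summed over libraries, gave smaller medians for the cycle lists than the contrast of dense nuclei did in these lineages. Of 15345 genes in vascular endothelial nuclei 15.4% were higher. There 32 of 50 S phase genes (median log2 ratio 0.74) and 55 of 57 genes of G2 and mitosis outside the rule (median 2.75) were higher. In macrophage nuclei 11% of 14876 genes were higher, with 15 of 49 S phase genes (median 0.25) and 38 of 47 of G2 and mitosis (median 1.42). The genes with the highest lower bounds were mostly cycle genes in vascular endothelial nuclei, led by Esco2, of sister chromatid cohesion, at 17.3 against 0.174 CPM without mitochondrial genes, Neil3 and Depdc1a. In cardiomyocyte nuclei they included Nrg1, an endocardial marker, at 660 against 80.0 CPM on the same scale, beside Diaph3, Kif4 and Kif23.

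Between libraries, members could be compared in macrophage nuclei alone, where the running and running infarct libraries had 20 each. Of 10970 genes 14.3% were higher and 11.7% lower in the running infarct members. The same contrast in other macrophage nuclei had 10.1% higher and 17.2% lower of 12775. Myofibroblast genes were higher in 13 of 14 (median log2 ratio 2.46) in members and 15 of 16 (median 2.11) in other macrophages. Homeostatic fibroblast genes were lower in 10 of 12 (median -1.46) and 11 of 12 (median -1.87). Both lists belong to fibroblasts, and they lay on the same side in macrophage nuclei outside the rule. Between dense macrophage nuclei of these libraries, the 4 myofibroblast genes measured had a median of 0.44, and the part of other cells' RNA was not tested.

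The macrophage lists moved less between these libraries. In members the resident list had a median of -0.02, the monocyte-derived list 0.53 and the lipid-associated list 0.30, the last turning to -0.24 with barcodes of at most 20000 UMIs. Genes farthest from even were Gpr176, an orphan receptor gene, with 77 against 3 UMIs, the matrix gene Ltbp2 with 98 against 7 and the potassium channel gene Kcnma1 with 157 against 15. Lower were Pdk4, which restrains glucose oxidation, with 4 against 95 UMIs, and the fibroblast genes Scara5, with 20 against 197, and Gfra1, with 10 against 100. Against other macrophage nuclei of their own library, 9 of 10 resident genes were lower in running and in running infarct members, medians -1.33 and -1.36. Of all genes, 1687 of 12192 and 1702 of 11949 were lower. The monocyte-derived medians there were 0.11 and -1.16 and the lipid-associated ones -0.36 and -1.08. Summed macrophage markers were lower in members too, at a median of 28.1 against 62.3 UMIs per 10000 over all libraries. The part of this and of other cells' RNA in the members' lists was not tested.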

How the data were processed

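For each library the authors deposited a matrix of raw UMI counts, with genes in rows and barcodes in columns, per the file headers. They named Cell Ranger 7.1 and the GRCm39 build, per the submitters' processing notes, and used the 10x Genomics 3′ assay on sorted nuclei, per the labels' protocols. The matrices held 19806 barcodes, 25906 genes and 126520996 UMIs (32899707, 37533722, 26170995 and 29916572 per library), and the filters kept 5342, 6133, 3206 and 4903 barcodes. Of those filtered out, 1 met the UMI rule.

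Counts were read with scanpy 1.11.5 in Python 3.11.15 and scipy 1.17.1. A lineage needed 3 UMIs over 2 markers, and took the highest Poisson log-likelihood ratio. Gene ratios used counts summed per set over the total without 37 mitochondrial genes, for genes with at least 20 UMIs and 3 expected in each set. A count of 0 was set to a floor of 3 for medians. Levels in CPM are UMIs per 1000000 of all UMIs unless said to leave out mitochondrial genes. Shares carry Clopper-Pearson, levels Poisson and ratios of counts conditional binomial intervals, all at 95%. The limit given in the text for a count of 0 is 3 counts over the number of nuclei, and bars in the plots are Clopper-Pearson there too. Ratios of shares carry an interval on the log scale. PCR was corrected by UMIs, but intervals cover counting error only and not animals. Clusters used 3000 variable genes, 40 components, 15 neighbours and Leiden resolution 1. The scripts were tested on simulated data.

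Members, gene lists and comparisons were chosen with earlier results of these data known. The naming rule took the 11 rule genes, the 10 genes per lineage with the highest lower bound, up to 4 list members with most UMIs, and 5 genes per direction between libraries. Other genes named were chosen after their values were seen. Y-linked genes were left out of naming. Xist is not used here. Promoter windows are RefSeq's on GRCm38.p6, not the build of the counts, and were matched by symbol. Alternatives were other UMI minimums, gene sets, filters, thinning, clusters, weights and denominators.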

Additional observations from a re-analysis of the deposited data

Results flagged for a closer look

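The ratio of the running to the sedentary library's vascular endothelial share was below 1 without infarct and above 1 with infarct. Over all members, the running over sedentary ratio was 0.784 (0.359 to 1.71) without infarct and 3.03 (1.36 to 6.75) with infarct. In dense nuclei it was 0.509 (0.186 to 1.40) without and 5.03 (1.53 to 16.5) with infarct. Of the 27 dense vascular endothelial nuclei of the running infarct library, 6 were marked for a second lineage. Each ratio compares 1 library with another, and both ratios below 1 lie within counting error of even. The difference between the ratios was not tested.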

How the results depend on the processing

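No paired analysis was possible because each group has 1 library and the result comes from no test. In the order sedentary, running, sedentary infarct and running infarct, the share of members was 1.87, 2.33, 3.52 and 4.24% with at least 2 rule UMIs, 0.674, 0.766, 1.15 and 2.12% with at least 5, 0.487, 0.538, 0.530 and 1.82% with 5 per 10000, 0.565, 0.777, 0.761 and 1.85% up to 20000 UMIs, 0.730, 1.09, 1.37 and 2.79% without Cenpf and 0.332, 0.361, 0.421 and 1.38% after thinning to 2000 UMIs. With 5 marker genes alone (Mki67, Top2a, Cenpf, Aspm and Kif11) the last 3 were 0.848, 1.06 and 2.30%, and with at most 5% mitochondrial UMIs 0.777, 2.88 and 5.09%. With at least 800 genes the running infarct share was 4.16%. The limits of 5 per 10000 and 20000 UMIs and the sets without Cenpf and matched by library were chosen after seeing the data.

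The ratio of sedentary infarct to sedentary became 1.32 with 5 marker genes, 3.15 at 5% mitochondrial UMIs, 1.09 with 5 per 10000, 1.35 up to 20000 UMIs and 1.27 thinned. That of running infarct to running became 6.55, 3.37 and 3.83 at 5% mitochondrial UMIs, with 5 per 10000 and thinned. Running to sedentary became 0.849 at 5% mitochondrial UMIs. Running infarct to sedentary infarct became 2.17 with 5 marker genes, 3.42 with 5 per 10000, 2.43 up to 20000 UMIs, 2.04 without Cenpf and 3.28 thinned. The running infarct share was the highest under each setting run.

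By cluster, macrophage, vascular endothelial, cardiomyocyte and fibroblast nuclei made up 7.69, 6.90, 5.57 and 1.86% of members. Of the 377 members, 242 were in clusters with no name and stayed in the denominator. By markers, these lineages made up 23.5, 29.4, 5.88 and 5.88% of the nuclei that met the rule after thinning. Vascular endothelial nuclei made up 27.9% with 5 per 10000 and 23.2% up to 20000 UMIs. Cardiomyocyte nuclei made up 8.93% with at least 5 rule UMIs, 11.6% with 5 marker genes, 5.45% with 5 per 10000 and 9.76% without Cenpf.

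Medians of log2 ratios are given for the mean over nuclei, 5 per 10000, up to 20000 UMIs and matched libraries in this order. In macrophages they were 1.51, 1.34, 1.56 and 1.34 for S phase and 3.47, 3.21, 3.0 and 2.85 for G2 and mitosis. In vascular endothelial nuclei they were 2.39, 1.43, 2.13 and 1.46 for S phase, and 4.5 and 3.30 in the first 2 for G2 and mitosis. The lipid-associated median between libraries became -0.24 up to 20000 UMIs. In all, 74 values moved by more than their counting error or, for medians, the error of a median, and 108 did not. The running to sedentary ratio and the lipid-associated median crossed even among those that moved. Among those that did not, the running infarct to sedentary infarct ratio of macrophages went from 0.549 to 1.01 with 5 per 10000 and thinned, and the resident median between libraries from -0.02 to 0.06 with 50 UMIs per gene and to 0.24 with 5 per 10000. The cause was not tested. Thinning other nuclei to the members' depth was not run, since other nuclei were shallower. Depth limits shares in lineages with few nuclei, where 0 of 482 allows 0.622% by the limit of 3 counts.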
